A study of Mus musculus with 6 samples.

Results

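The genes described here encode the protein-folding machinery of the endoplasmic reticulum (ER) and the unfolded protein response, the signalling system that adjusts it. They were taken from a list of 33 symbols, and a gene counted as measured where the annotation of the array gave at least 1 probe set that symbol alone. This held for 32 of the 33, out of 20416 genes measured in all. The remaining gene, Ppp1r15a, which encodes the phosphatase subunit GADD34, had no such probe set and is not analysed here. The list was written with earlier results of these data known. By role it holds 11 chaperones and cochaperones, 6 oxidoreductases, 8 genes of the PERK branch including Ppp1r15a, 2 of the IRE1 branch, Atf6, 3 genes of ER-associated degradation, and Txnip and Wfs1.

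RNA came from MIN6-4N, a mouse insulinoma line with the features of pancreatic beta cells. Both groups had been transfected by nucleofection and selected with G418, first at 750 µg/ml for 5 weeks and then at 500 µg/ml in culture, so the drug was common to all samples. The control cells, called vector here, carried the empty plasmid pcDNA3.1, and the others, called Meg3, carried pcDNA3.1-mMeg3, which holds mouse Meg3, an imprinted long non-coding RNA. Each group was 3 independent cultures of 1 picked clone, so an effect of Meg3 and other differences between the clones cannot be told apart, and p-values here measure only the spread between cultures of a clone. The sample descriptions also speak of a sort that no protocol mentions, and the labels number the Meg3 clone in different ways. RNA was measured in bulk, so fewer cells with a transcript and less of it per cell cannot be told apart. The question is which genes of beta cells differ in level with Meg3.

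Beta cells fold large amounts of proinsulin, and each molecule needs disulfide bonds that are made in the ER. Disulfides are passed to it by protein disulfide isomerases, which the oxidases of the Ero1 family recharge, while BiP, GRP94 and the lectin chaperones hold unfolded chains. When unfolded chains accumulate, PERK, IRE1 and ATF6, which are sensors in the ER membrane, lower translation and raise the transcription of chaperone, degradation and amino acid genes. PERK acts through ATF4 and CHOP, IRE1 through splicing of the Xbp1 messenger, and ATF6 through release of its own cytosolic part. Levels of RNA do not report phosphorylation, cleavage or splicing, so the activity of the sensors themselves was not measured.

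All values below are log2 values per gene, the mean over a gene's probe sets on an array, and a difference is always Meg3 minus vector. Meg3 itself stood at 5.63, 6.00 and 5.88 in vector replicates 1 to 3 and 7.24, 7.91 and 7.53 in Meg3 replicates 1 to 3, a 3.30-fold higher level (limma adjusted p = 0.00756), so the labels held for the transfected gene. Among the arrays, 1 of each clone deviated from the rest (vector replicate 2 and Meg3 replicate 1, called the apart arrays below), with a spread of 0.85 and 0.63 (SD of probe sets around the median of the other arrays, log2) against 0.42 to 0.48 for the remaining 4. Results for the set are given with and without them where a call or a direction depends on it. All 12 listed beta cell markers lay above the median of all genes (6.66), Ins2 and Iapp among them. Of 27 measured markers of other cell types 7 did so, including all 3 alpha cell markers (the glucagon gene Gcg, Irx2 and Ttr). The rest of the 7 were the pancreatic polypeptide gene Ppy, the ductal marker Krt7, the fibroblast marker Col1a1 and the macrophage marker Cd68. Of the acinar markers 0 of 5 did so. Of these 27 markers 0 were called (limma; 0 at an unadjusted p under 0.05). Of the 12 beta cell markers 0 were called, and the glucose transporter gene Slc2a2 was the 1 at an unadjusted p under 0.05 (-0.27, SE 0.11). The arrays of Slc2a2 and of the transcription factor gene Mafa (-0.24, SE 0.12) were separated between the clones, both lower. Of all genes, 6.39% were separated as lower and 6.41% as higher. Among the markers of other cell types, Sst was separated as lower, and Hhex, Col1a2 and Cdh5 as higher. The proinsulin convertase gene Pcsk2 (-0.30, SE 0.21) was called lower without the apart arrays (-0.40; limma adjusted p = 0.0450), in a fit that called 4.01% of all genes lower. The part of beta cell marker levels in the results below was not tested.

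No gene of the set passed the test between the clones. With all 6 arrays, 0 of 32 were called higher or lower (limma, Benjamini-Hochberg adjusted p under 0.05 over 20416 genes), where 0.666% of all genes were called (0.201% higher and 0.465% lower). The oxidase genes Ero1lb and Ero1l, both lower, were the 2 that reached an unadjusted p under 0.05, where 6.96% of all genes did and 4.28% did as lower. The median difference of the 32 genes was -0.07 against 0.01 over all genes, with 22 negative and 10 positive. For 24 of the 32 the difference was under 0.2 in size. The sign was the same in all 16 alternative fits for 15 genes, namely Ero1lb, Ero1l, P4hb, Pdia6, Txnip, Atf3, Atf4, Eif2ak3, Ern1, Xbp1, Dnajc3, Manf, Hyou1, Creld2 and Sel1l, so the counts of signs given below rest partly on genes whose sign turns. Of the 15, Atf4, Hyou1, Xbp1, Ern1 and P4hb kept their sign only narrowly. Their smallest differences in size over the fits were -0.0001, 0.0013, -0.0044, -0.0092 and -0.0095.

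The 95% interval of the limma fit lay between a 2-fold decrease and a 2-fold increase for 29 of the 32 genes, where it did for 95.9% of all genes, and within 1.5-fold either way for 21. The 3 genes whose interval reached past 2-fold were Ero1lb, Ero1l and Txnip, each toward lower values in the Meg3 clone. Separation of the arrays gave a similar picture. In 3 of 32 genes (Ero1lb, Ero1l and Pdia4) all Meg3 arrays lay below all vector arrays, where 6.39% of all genes were separated that way, and in 0 of 32 they lay above, where 6.41% were. By the exact permutation test (two-sided), each of these 3 genes had p = 0.1, the smallest value that so few arrays allow.

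**Figure D1:**
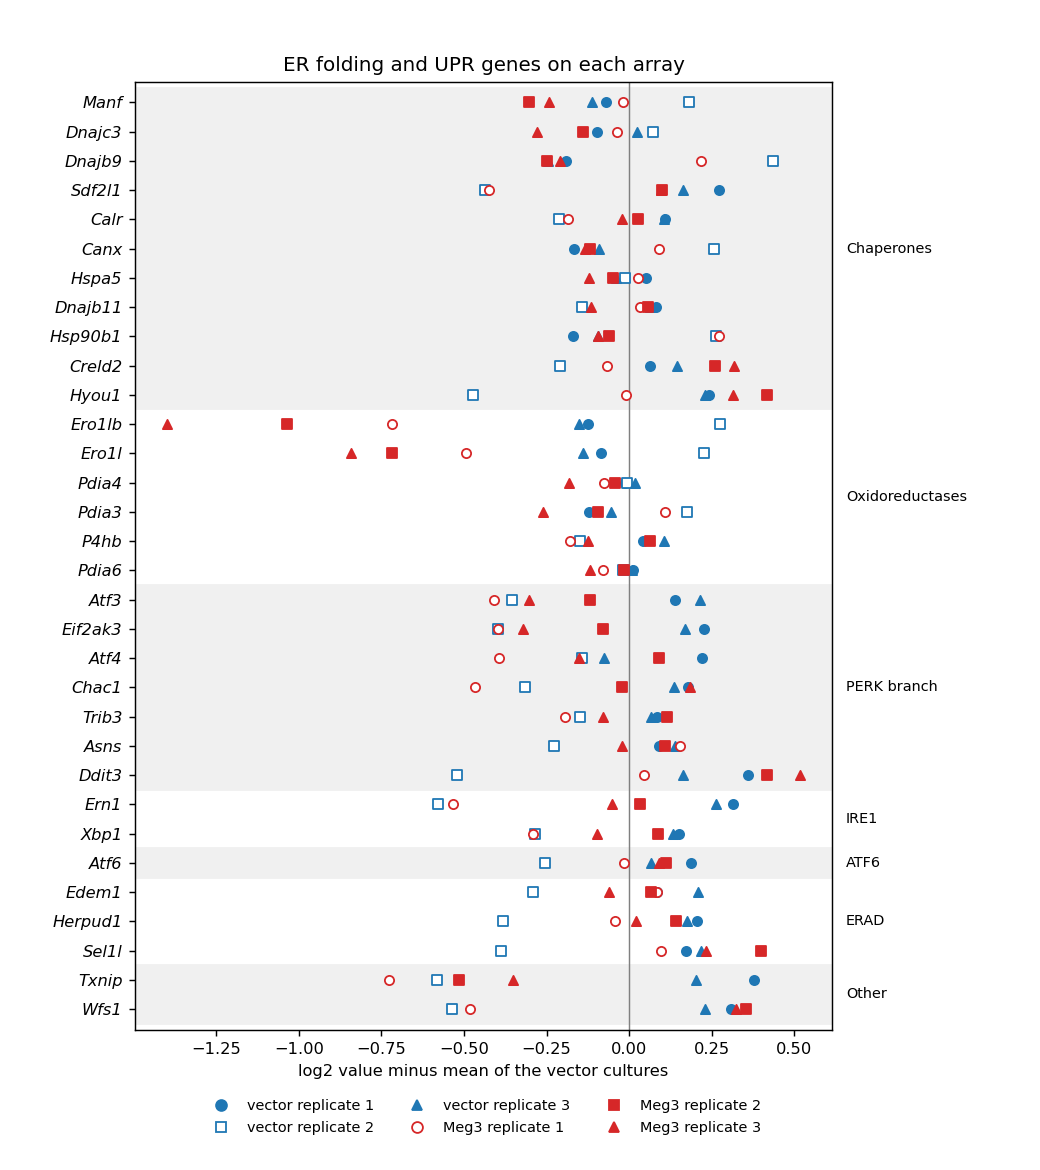
Each row is a gene, grouped by role, and each point is 1 array, placed at its log2 value minus the mean of the 3 vector cultures (blue for vector, red for Meg3, open symbols for vector replicate 2 and Meg3 replicate 1). Ero1lb and Ero1l are the rows where red and blue points lie far apart, and vector replicate 2 is the lowest vector point for 22 of the 32 genes.

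Some promoters of these genes carry sequence elements through which the response is known to act, and the matches are shown so that the elements can be seen. The set was chosen as genes of this response, many of them known targets of ATF6 and XBP1, so the shares of windows below describe that choice and are no independent finding. RefSeq promoter windows (GRCm38.p6, 250 bases before to 50 after the start) were found for 30 of the 33 genes. The ER stress response element ERSE, spelled CCAAT and CCACG with 9 bases of any kind between them, is the site of ATF6 and XBP1 together with NF-Y. Searched on both strands, it occurred in 8 of the 30 windows (26.7%), against 0.119% of all 32851 windows. The 8 genes were Hspa5, Hsp90b1, Calr, Canx, Pdia6, Creld2, Dnajc3 and Ero1lb, and Hsp90b1 held 2 copies. The shorter ERSE-II, spelled ATTGG and CCACG with any 1 base between them, occurred in Dnajb11 and Herpud1 (6.67% of the windows of the set, 0.0365% of all).

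The matches are printed 5′ to 3′ on the strand that carries the element, with its fixed letters in capitals and the open spacer in lower case.
Hspa5: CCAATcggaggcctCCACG
Hsp90b1 copy 1: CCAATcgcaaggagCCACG
Hsp90b1 copy 2: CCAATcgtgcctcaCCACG
Calr: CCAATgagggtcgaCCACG
Canx: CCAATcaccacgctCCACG
Pdia6: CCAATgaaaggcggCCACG
Creld2: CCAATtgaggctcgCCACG
Dnajc3: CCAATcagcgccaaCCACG
Ero1lb: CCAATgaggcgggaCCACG
Herpud1: ATTGGgCCACG
Dnajb11: ATTGGcCCACG
Counted from the start, with -1 the base before it, the Hspa5 element lay at -65 to -47 and those of Hsp90b1 at -212 to -194 and -107 to -89. The Dnajb11 match lay after the start, at 8 to 18. The Ero1lb element lay at -201 to -183, on the opposite strand from the gene. These are matches of letters, and binding was not measured.

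The elements are shown in place for Hspa5, the classical target, and for the oxidase genes that differed most. Each sequence is the 250 bases before the start on the gene's own strand, with the fixed letters of ERSE in capitals (for Ero1lb as the reverse complement, CGTGG and ATTGG). The windows are chr2:34771840-34772089 (plus strand), chr13:12565633-12565882 (plus strand, named Ero1b in RefSeq) and chr14:45318573-45318822 (minus strand, named Ero1a in RefSeq), all on GRCm38.p6.
Hspa5: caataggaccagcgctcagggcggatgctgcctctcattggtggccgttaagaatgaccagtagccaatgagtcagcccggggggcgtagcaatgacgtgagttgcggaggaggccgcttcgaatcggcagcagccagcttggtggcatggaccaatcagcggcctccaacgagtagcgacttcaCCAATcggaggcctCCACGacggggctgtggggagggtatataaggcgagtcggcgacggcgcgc
Ero1lb: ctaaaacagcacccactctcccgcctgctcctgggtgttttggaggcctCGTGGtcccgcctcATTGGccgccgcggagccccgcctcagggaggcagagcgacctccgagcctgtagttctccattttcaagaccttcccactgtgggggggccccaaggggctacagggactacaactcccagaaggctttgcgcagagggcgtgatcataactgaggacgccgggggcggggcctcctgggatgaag
Ero1l: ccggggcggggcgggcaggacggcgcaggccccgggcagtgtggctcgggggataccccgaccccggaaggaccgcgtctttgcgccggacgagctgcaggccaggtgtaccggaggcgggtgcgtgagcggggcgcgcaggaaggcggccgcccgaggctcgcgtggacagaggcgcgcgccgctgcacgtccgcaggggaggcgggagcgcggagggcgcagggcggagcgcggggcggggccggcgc
The Ero1l window held none of the motifs searched, which says only that these letters are not in it. The UPRE motif TGACGTGG occurred in 0 of the 30 windows, against 0.676% of all. The core of the C/EBP-ATF element TGATGNAA, the kind of site ATF4 and CHOP use, occurred in 5 (16.7%), against 3.97% of all windows, and these were Asns, Atf3, Chac1, Herpud1 and Trib3. Herpud1 was the 1 gene with matches of 2 motifs, and these did not overlap. The 10 genes with ERSE or ERSE-II had differences from -1.05 to 0.17 with a median of -0.05, and the 19 measured genes with a window and neither element had a median of -0.08.

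Ero1lb, the Ero1 oxidase that is abundant in pancreatic islets, was the gene of the set that differed most. Its values were 11.79, 12.19 and 11.77 in vector replicates 1 to 3 and 11.20, 10.88 and 10.52 in Meg3 replicates 1 to 3. All 3 Meg3 cultures lay below all 3 vector cultures. The means were 11.92 ± 0.24 (SD, n = 3) for vector and 10.87 ± 0.34 (SD, n = 3) for Meg3, a 2.07-fold lower level in the Meg3 clone (difference -1.05, SE 0.20, 95% interval -1.51 to -0.59). It was not called (limma adjusted p = 0.0765), and it ranked 188 by p among all genes. All 18 of its probe sets were lower, with differences of -0.49 to -2.15, and in 16 of the 18 the arrays of the clones did not overlap, where 5.41% of all probe sets were separated in that direction. Probe sets of a gene read the same cultures, so here and below their counts are not independent readings. Tested singly, 0 of the 18 were called, as against 0.000828% of all probe sets (lowest limma adjusted p = 0.147), and 14 had an unadjusted p under 0.05.

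Ero1l, the more widely expressed oxidase of the family, was lower as well. It read 10.08, 10.39 and 10.03 in vector replicates 1 to 3 and 9.67, 9.45 and 9.33 in Meg3 replicates 1 to 3, again without overlap. The means were 10.17 ± 0.20 (SD, n = 3) for vector and 9.48 ± 0.18 (SD, n = 3) for Meg3, a 1.61-fold lower level (difference -0.69, SE 0.15, 95% interval -1.03 to -0.34; limma adjusted p = 0.130, not called). All 17 probe sets were lower, with differences of -0.39 to -1.08, and 15 were separated. A further 11 probe sets that the annotation shares between Ero1l and other genes, Rpl31 among them, were left out by the rule. For both oxidase genes vector replicate 2 was the highest vector array and Meg3 replicate 1 the highest Meg3 array. Without these arrays the differences were -1.08 (SE 0.13) for Ero1lb and -0.67 (SE 0.10) for Ero1l, and both were called lower (limma adjusted p = 0.00116 and 0.00467). That fit called 5.44% of all genes (4.01% as lower), and it shares its 4 arrays with the fit on 6.

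**Figure D2:**
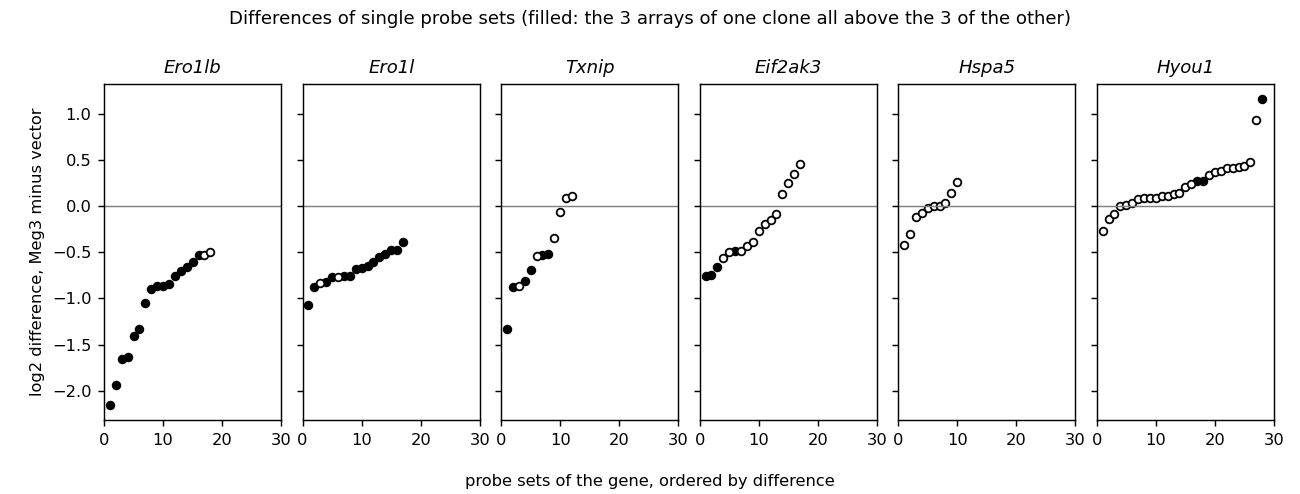
Each point is a probe set, placed by its log2 difference (Meg3 minus vector) and ordered within its gene, for Ero1lb, Ero1l, Txnip, Eif2ak3, Hspa5 and Hyou1; filled points are probe sets whose arrays do not overlap between the clones. Every probe set of Ero1lb and Ero1l lies below 0, whereas those of Hspa5 lie on both sides of it.

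The disulfide isomerases that the oxidases serve differed little. P4hb encodes protein disulfide isomerase itself, Pdia3 the glycoprotein-directed ERp57, Pdia4 ERp72 and Pdia6 P5. Their differences were -0.08 (SE 0.13), -0.08 (SE 0.14), -0.10 (SE 0.11) and -0.07 (SE 0.11), all negative, and none was called (limma adjusted p = 1.00 for each). The sign of Pdia4 was positive with the brightest probe set or the median of probe sets, and that of Pdia3 in the fits without vector replicate 2 and without Meg3 replicate 3. Pdia4 read 10.75, 10.76 and 10.79 in vector replicates 1 to 3 and 10.69, 10.72 and 10.59 in Meg3 replicates 1 to 3. These arrays were separated, but little, since the vector arrays spanned a narrow range, and 4 of its 11 probe sets were higher rather than lower. The 95% intervals of these 4 genes reached at most -0.41 and 0.25, and the interval of Ero1lb lay wholly below them. That of Ero1l (-1.03 to -0.34) overlapped this range. The difference between oxidases and isomerases was not itself tested.

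Chaperones of the ER and their partners differed little between the clones, by -0.19 to 0.24 over 11 genes, and the 95% interval lay within 2-fold for all 11 and within 1.5-fold for 9. Hspa5 encodes BiP, the Hsp70 of the ER and the usual readout of the response. It read 11.18, 11.12 and 11.09 in vector replicates 1 to 3 and 11.16, 11.08 and 11.01 in Meg3 replicates 1 to 3, so the groups overlapped within a narrow range. The means were 11.13 ± 0.05 (SD, n = 3) for vector and 11.08 ± 0.07 (SD, n = 3) for Meg3 (difference -0.05, SE 0.11, 95% interval -0.30 to 0.21; limma adjusted p = 1.00). That interval lies within 1.5-fold in both directions. Hsp90b1, which encodes the ER Hsp90 GRP94, read 12.61, 13.05 and 12.69 in vector replicates 1 to 3 and 13.05, 12.72 and 12.69 in Meg3 replicates 1 to 3, with a difference of 0.04 (SE 0.16). Its highest arrays were vector replicate 2 and Meg3 replicate 1, and the remaining 4 lay close together.

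The lectin chaperones bind glucose-trimmed sugar chains on proteins that are still folding. Calr, which encodes calreticulin, read 11.65, 11.33 and 11.64 in vector replicates 1 to 3 and 11.36, 11.57 and 11.52 in Meg3 replicates 1 to 3 (difference -0.06, SE 0.14). Canx, which encodes its membrane-bound relative calnexin, read 12.34, 12.76 and 12.42 in vector replicates 1 to 3 and 12.60, 12.39 and 12.37 in Meg3 replicates 1 to 3 (difference -0.05, SE 0.15). In both genes the arrays of the clones interleaved.

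No cochaperone or partner of BiP was called either. Among the J-domain proteins, which deliver clients to BiP, Dnajb9 (ERdj4) had the widest spread, at 11.02, 11.65 and 10.96 in vector replicates 1 to 3 and 11.43, 10.96 and 11.0005 in Meg3 replicates 1 to 3 (difference -0.08, SE 0.21). Vector replicate 2 and Meg3 replicate 1 were its highest arrays. Dnajc3, which encodes the eIF2 kinase inhibitor p58IPK, differed by -0.15 (SE 0.12) with 24 of 26 probe sets lower. These probe sets came largely in pairs with identical values on every array, so they are not 26 separate readings. Dnajb11 (ERdj3) differed by -0.01 (SE 0.12). Sdf2l1, a partner of ERdj3, read 9.57, 8.86 and 9.46 in vector replicates 1 to 3 and 8.88, 9.40 and 9.40 in Meg3 replicates 1 to 3 (difference -0.07, SE 0.22), and here the apart arrays were the lowest of their clones.

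Hyou1, the exchange factor GRP170, differed by 0.24 (SE 0.22), with 25 of 28 probe sets higher, and vector replicate 2 was its lowest array. The stress-induced secreted proteins Manf and Creld2 had opposite signs. Manf read 9.83, 10.09 and 9.79 in vector replicates 1 to 3 and 9.89, 9.60 and 9.66 in Meg3 replicates 1 to 3, a difference of -0.19 (SE 0.14) with all 6 probe sets lower. Creld2 read 10.46, 10.19 and 10.54 in vector replicates 1 to 3 and 10.33, 10.66 and 10.71 in Meg3 replicates 1 to 3, a difference of 0.17 (SE 0.15) with 10 of 11 probe sets higher. The groups overlapped in each of these genes, and over all 11 chaperones and cochaperones 8 differences were negative, with a median of -0.05.

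**Figure D3:**
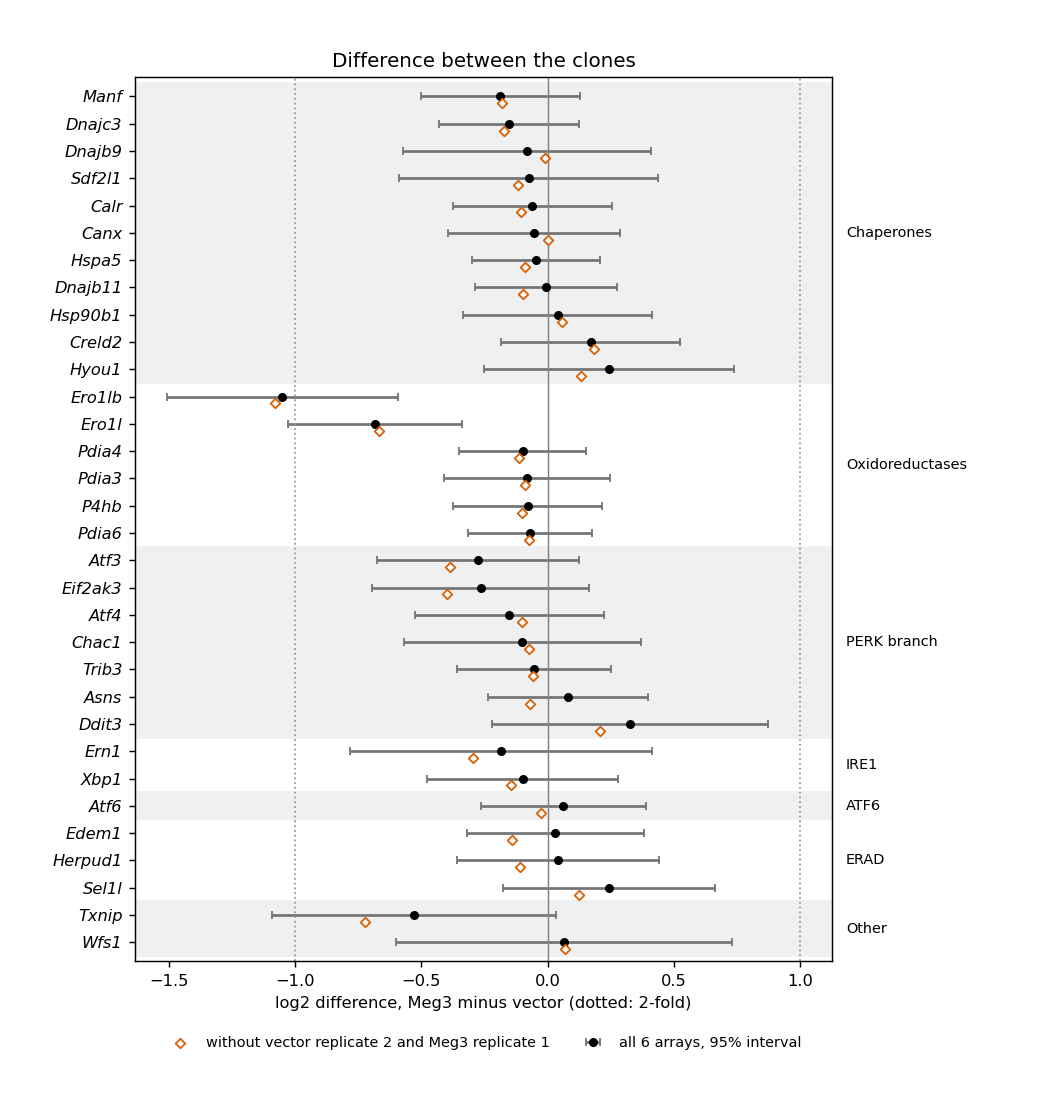
Filled points give the log2 difference of each gene (Meg3 minus vector, all 6 arrays) with its 95% interval, and open diamonds the difference without vector replicate 2 and Meg3 replicate 1. Intervals of 29 of the 32 genes lie between the dotted lines at 2-fold, and those of Ero1lb and Ero1l lie wholly below 0.

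In the PERK branch, 5 of the 7 measured genes had negative and 2 positive differences, and 0 were called (limma; 0 at an unadjusted p under 0.05). Eif2ak3, which encodes PERK, read 8.86, 8.23 and 8.80 in vector replicates 1 to 3 and 8.23, 8.55 and 8.31 in Meg3 replicates 1 to 3 (difference -0.27, SE 0.19, limma adjusted p = 1.00). Vector replicates 1 and 3 were its highest arrays, and vector replicate 2 lay level with the lowest Meg3 array. Of its 17 probe sets 13 were lower. Atf4, the transcription factor whose translation rises when PERK acts, read 8.52, 8.16 and 8.23 in vector replicates 1 to 3 and 7.91, 8.39 and 8.15 in Meg3 replicates 1 to 3 (difference -0.15, SE 0.16), with overlap. This value averages dim and bright probe sets. The brightest lay at 11.08 to 11.20 over the arrays and differed by -0.0001, and the dimmest lay at 4.02 to 5.50.

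Targets of ATF4 had differences of both signs. Ddit3 encodes CHOP, a factor tied to death under prolonged stress, and read 8.73, 7.85 and 8.53 in vector replicates 1 to 3 and 8.42, 8.79 and 8.89 in Meg3 replicates 1 to 3. Its difference of 0.33 (SE 0.24, 95% interval -0.22 to 0.87) was the most positive of the set, and vector replicate 2 was by far its lowest array. Without that array the difference was 0.07, and without both apart arrays 0.21. Atf3, a stress-induced repressor, read 7.63, 7.13 and 7.70 in vector replicates 1 to 3 and 7.08, 7.37 and 7.18 in Meg3 replicates 1 to 3, a difference of -0.28 (SE 0.17). For it, as for PERK, vector replicates 1 and 3 lay above every Meg3 array while vector replicate 2 did not.

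The remaining targets were close to 0. Trib3, a pseudokinase induced by CHOP and ATF4, read 6.52, 6.29 and 6.50 in vector replicates 1 to 3 and 6.24, 6.55 and 6.35 in Meg3 replicates 1 to 3 (difference -0.05, SE 0.13) and was the 1 gene of the set below the median of all genes. Chac1, which degrades glutathione, read 8.97, 8.47 and 8.92 in vector replicates 1 to 3 and 8.32, 8.77 and 8.97 in Meg3 replicates 1 to 3 (difference -0.10, SE 0.20). Asns, asparagine synthetase, read 11.86, 11.54 and 11.91 in vector replicates 1 to 3 and 11.92, 11.88 and 11.75 in Meg3 replicates 1 to 3 (difference 0.08, SE 0.14). None of these genes separated the clones.

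Ern1, Xbp1 and Atf6, the genes listed here for the IRE1 and ATF6 branches, did not separate the clones. Known targets of ATF6 and XBP1 are described under other roles, and of the genes with an ERSE, Ero1lb was separated as lower. Ern1, which encodes IRE1 alpha, read 9.996, 9.11 and 9.95 in vector replicates 1 to 3 and 9.15, 9.72 and 9.63 in Meg3 replicates 1 to 3 (difference -0.18, SE 0.26, 95% interval -0.78 to 0.41). Both apart arrays were far below the others of their clone. Xbp1, whose messenger IRE1 splices, read 8.58, 8.14 and 8.56 in vector replicates 1 to 3 and 8.13, 8.51 and 8.33 in Meg3 replicates 1 to 3 (difference -0.10, SE 0.16), and these values do not separate its spliced and unspliced forms. Atf6 read 10.33, 9.89 and 10.21 in vector replicates 1 to 3 and 10.13, 10.26 and 10.24 in Meg3 replicates 1 to 3 (difference 0.06, SE 0.14), with vector replicate 2 lowest and the other arrays close together.

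The 3 genes of ER-associated degradation, which hands misfolded proteins to the proteasome, had positive differences with all 6 arrays. Herpud1, which organises the ligase complex, read 8.59, 8.01 and 8.57 in vector replicates 1 to 3 and 8.35, 8.53 and 8.41 in Meg3 replicates 1 to 3 (difference 0.04, SE 0.17). Edem1, which marks misfolded glycoproteins, differed by 0.03 (SE 0.15). Sel1l, the adaptor of the HRD1 ligase, differed by 0.24 (SE 0.18), with 20 of 23 probe sets higher. Without vector replicate 2 and Meg3 replicate 1, Herpud1 and Edem1 turned negative (-0.11 and -0.14), so neither has a settled direction.

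Txnip and Wfs1 bear on the response in beta cells from outside its core. Txnip encodes the thioredoxin-interacting protein, a gene induced by glucose and ER stress that restrains thioredoxin. It read 8.57, 7.61 and 8.39 in vector replicates 1 to 3 and 7.46, 7.67 and 7.83 in Meg3 replicates 1 to 3. Vector replicates 1 and 3 lay above all Meg3 cultures, and vector replicate 2 lay among them. The difference was -0.53 (SE 0.24, 95% interval -1.09 to 0.03; limma adjusted p = 0.758), a 1.44-fold lower level that was not called, with 10 of 12 probe sets lower. Without vector replicate 2 it was -0.82 and called lower (limma adjusted p = 0.0302), in a fit that called 1.33% of all genes lower and 1 of the 32, and without both apart arrays it was -0.72 (adjusted p = 0.00500).

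Wfs1, the ER membrane protein wolframin, mutated in a syndromic diabetes, had the widest spread of the set among Meg3 cultures. It read 8.80, 7.96 and 8.72 in vector replicates 1 to 3 and 8.01, 8.85 and 8.82 in Meg3 replicates 1 to 3. Its apart arrays, 1 in each clone, were lower than their fellows by almost the same amount (-0.81 for vector replicate 2 and -0.82 for Meg3 replicate 1), while the difference between clones was 0.06 (SE 0.29).

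The set also differed between cultures of the same clone. Vector replicate 2 deviated from the mean of the other vector cultures by a median of -0.32 over the 32 genes, against 0.08 over all genes. Meg3 replicate 1 deviated from its fellows by a median of -0.14, against 0.02 over all genes. Vector replicate 2 was the lowest vector array for 22 of the 32 genes, where 37.6% of all genes had it lowest, and Meg3 replicate 1 the lowest Meg3 array for 18, where 37.7% did. In 27 of the 32 genes (84.4%) both arrays deviated in the same direction (8 up and 19 down), where 71.4% of all genes did so. Over all genes the deviations of these 2 arrays from their group means correlated at 0.65, so their agreement is not particular to the set. Of the 32 genes, 31 lay above the median level of all genes, and level was not matched in these comparisons. Vector replicate 2 lay above the mean of its fellows for 8 of the 32. In the neighbouring lists below it did so for 4 of 30 to 11 of 21 genes, so its low values are not particular to the set.

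Named by role, the genes above their fellows in both apart arrays were the chaperones and partners Hsp90b1, Canx, Dnajb9, Dnajc3 and Manf, Pdia3, 1 of the 4 isomerases, and both Ero1 oxidases. Those below in both were 6 of the 7 measured PERK branch genes (all but Asns), both IRE1 branch genes, Atf6, Sdf2l1, Hyou1, Creld2, Calr, the isomerases P4hb and Pdia6, Herpud1, Sel1l, Txnip and Wfs1. Hspa5, Dnajb11, Pdia4, Edem1 and Asns went opposite ways in the 2 arrays. Dnajb9 was 0.65 above in vector replicate 2 and 0.45 above in Meg3 replicate 1. Ern1 was -0.87 and -0.52 there. These arrays also had the lowest medians over all probe sets, 7.02 and 7.08 against 7.14 to 7.19, and the part of array quality in these deviations was not tested.

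**Figure D4:**
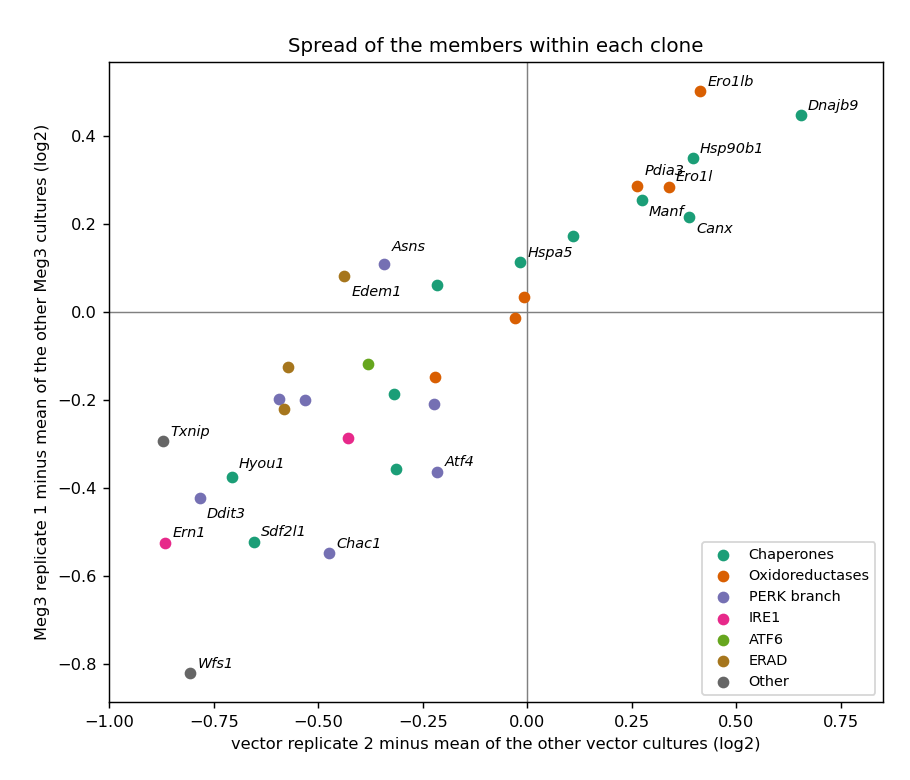
Each point is a gene of the set, coloured by role, placed by how far vector replicate 2 lay from the mean of the other vector cultures (horizontal, log2) and Meg3 replicate 1 from the mean of the other Meg3 cultures (vertical, log2). Of the 32 points, 27 lie in the lower left or upper right region, with Wfs1, Ern1 and Ddit3 low on both axes and Dnajb9, Ero1lb and Hsp90b1 high on both.

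Leaving out both apart arrays left most of the set uncalled. With 2 cultures a clone, 3 of 32 genes were called lower (Ero1lb, Ero1l and Txnip) and 0 higher, where 4.01% and 1.43% of all genes were. A fit of all 6 arrays with array weights called 4 of 32 lower, Atf3 being the fourth, and 0 higher, where 4.26% and 1.85% of all genes were. Without both arrays the next nearest were Atf3 (-0.39, SE 0.10; limma adjusted p = 0.0661), Eif2ak3 (-0.40, SE 0.11; adjusted p = 0.0729) and Ern1 (-0.30, SE 0.10; adjusted p = 0.124). Hspa5 stood at -0.09 (SE 0.10), Hsp90b1 at 0.05 (SE 0.10) and Ddit3 at 0.21 (SE 0.11). The median of the set was -0.10, against 0.02 for all genes. The arrays were left out because earlier results showed their spread, so these calls are no independent support.

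Neighbouring parts of the secretory and stress machinery were read from 6 further lists, also written with earlier results known. With all 6 arrays, 0 members of any of them were called by limma, and the counts at an unadjusted p under 0.05 follow, a level that 6.96% of all genes reached (4.28% as lower). Of all genes, 48.4% had a negative difference. For the ER translocon and glycosylation enzymes, which bring chains into the ER and attach their sugars, 0 of 27 genes reached that level (median -0.05, 18 negative). Their brightest members were Sec61g (0.06, SE 0.14), a channel subunit, and Stt3a (-0.04, SE 0.13), an oligosaccharyltransferase subunit. For further genes of ER-associated degradation it was 1 of 21 (median 0.03), with Ube2j1 (0.03, SE 0.11), an ER ubiquitin-conjugating enzyme, and Ufd1l (-0.03, SE 0.11), a cofactor of the extraction ATPase, as the brightest. Cytosolic and mitochondrial chaperones, which serve other compartments, had 0 of 21 (median 0.02), with the cytosolic Hsp90 genes Hsp90ab1 at -0.07 (SE 0.15) and Hsp90aa1 at -0.06 (SE 0.13).

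Further sensors, kinases and proteases had 0 of 17 (median -0.09), with Eif2s1 (-0.21, SE 0.16), the translation factor subunit that PERK phosphorylates, and Tmbim6 (-0.35, SE 0.24), an ER membrane protein that restrains IRE1. Amino acid response genes downstream of ATF4 had 3 of 30 (median -0.05), all lower, while the brightest, the transporter gene Slc7a5 (0.05, SE 0.23) and the glycyl-tRNA synthetase gene Gars (0.01, SE 0.12), stayed near 0. The list of other ER oxidoreductases had the lowest median of the 6, at -0.21 with 13 of 20 negative and 3 of 20 at an unadjusted p under 0.05, all lower. Its brightest members were the thioredoxin-related membrane proteins Tmx1 (-0.39, SE 0.15) and Tmx2, listed on the array as Txndc14 (0.17, SE 0.13). Vector replicate 2 lay above the mean of its fellows for 57.5% of all genes, and in the order the lists are given here for 10 of 27, 5 of 21, 11 of 21, 7 of 17, 4 of 30 and 9 of 20. Meg3 replicate 1 did so for 52.7% of all genes and for 15 of 27, 9 of 21, 12 of 21, 4 of 17, 8 of 30 and 10 of 20. Without both arrays, limma called 1 translocon gene lower (Srprb), 1 degradation gene higher (Derl3) and 1 lower (Faf2), 3 oxidoreductases lower (Prdx4, Txndc12 and Txndc5), 2 amino acid response genes lower (Ddit4 and Slc7a3) and 0 in the other lists, names taken after their values were seen. That fit called 4.01% of all genes lower and 1.43% higher.

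**Figure D5:**
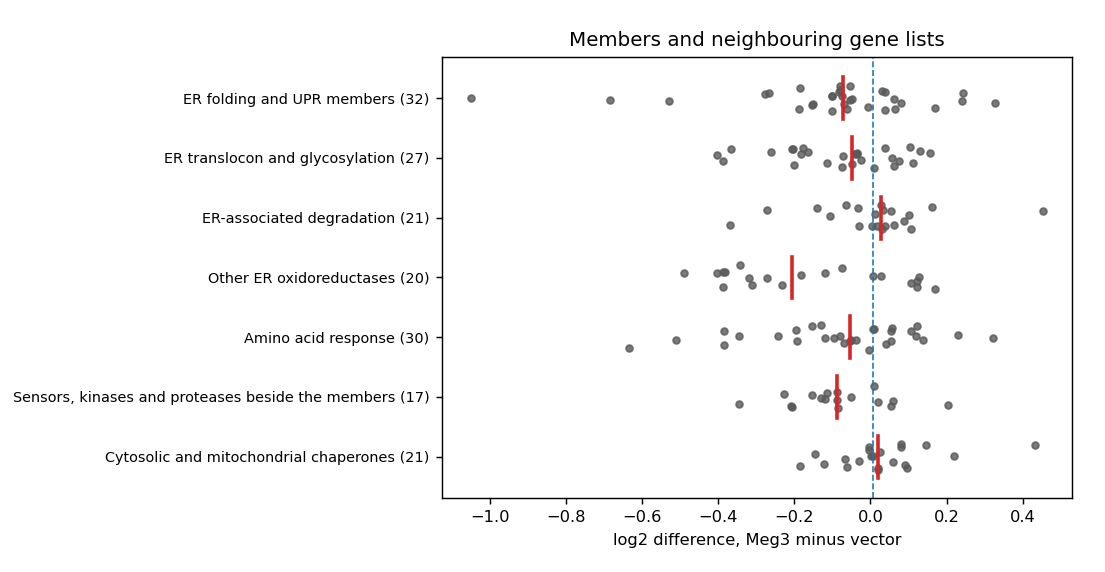
Each point is a gene, placed by its log2 difference (Meg3 minus vector, all 6 arrays), in the ER folding and unfolded protein response set and 6 neighbouring lists, with the number measured in brackets; red bars are medians of the lists and the dashed line is the median of all genes (0.01). The other ER oxidoreductases have the leftmost median, -0.21, and Ero1lb is the leftmost point.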

How the data were processed

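For each of 6 Affymetrix arrays the authors deposited probe set values on a log2 scale, which the submitters' processing notes tie to RMA and Partek, with no version or genome build given in the sources used here. RMA subtracts background, equalises the distributions of the arrays and summarises probes, which compresses differences of dim probe sets. Of 241419 probe sets, 212097 had 1 gene symbol in the array annotation, 4475 several and 24847 none, and only the first kind was used. A gene's value was the mean log2 value of its probe sets on an array (20416 genes). The comparison used lmFit and eBayes of limma 3.58.1 (R 4.3.3), two-sided, without covariates or a filter on dim genes, with Benjamini-Hochberg adjustment over all genes and calls at an adjusted p under 0.05. SEs and 95% intervals are those of the moderated fit. The fit was tested on simulated data.

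The members and lists were chosen with earlier results of these data known. Values on every array are given for members that were called or whose groups did not overlap and for a fixed set of sensors, factors and chaperones, and the other members by difference. From each further list the 2 genes of highest mean level are named where none was called. Current names (Ero1a for Ero1l, Ero1b for Ero1lb) and promoter windows came from RefSeq tables of GRCm38.p6. Protein sequence features were not analysed here. The number of arrays limits the precision. Deviations of the arrays from their group means were correlated between the clones over all genes. For same-numbered replicates 1, 2 and 3 the correlations were -0.61, -0.63 and 0.28. The highest were between different numbers, 0.65 for vector replicate 2 with Meg3 replicate 1 and 0.60 for vector replicate 1 with Meg3 replicate 2. Replicate numbers were therefore not treated as pairs. Alternatives were a replicate block, centring, repeated quantile normalization, a filter on dim genes, other gene summaries, other variance models, array weights, single probe sets, and fits without 1 or 2 arrays.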

Additional observations from a re-analysis of the deposited data

How the results depend on the processing

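The count of genes of the set called higher was 0 in each of the 16 alternative fits and for single probe sets. The count called lower was 0 with all 6 arrays and with a replicate block, and it was 4 with array weights (Ero1lb, Ero1l, Txnip and Atf3), 3 without vector replicate 2 and Meg3 replicate 1 (Ero1lb, Ero1l and Txnip) and between 0 and 1 in fits without 1 array, the 1 being Txnip without vector replicate 2; array weights gave vector replicate 2 the lowest weight (0.160) over the 6 arrays. The median difference of the set ran from -0.12 to -0.03. Ero1lb ran from -1.22 to -0.83 and Ero1l from -0.78 to -0.57 over all these fits, with adjusted p from 0.000537 to 0.403 and from 0.00250 to 0.594.

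Counts of all genes called higher and lower were 41 and 95 with all arrays, 11 and 19 with a replicate block, 12 and 28 with the brightest probe set of each gene, 16 and 42 with the median of probe sets, 377 and 869 with array weights, 0 and 0 with an ordinary linear model, and 292 and 819 without vector replicate 2 and Meg3 replicate 1. Without 1 array they ran from 8 to 78 and from 14 to 271.

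Of the 32 genes, 15 kept their sign in every fit and 17 did not, each of the 17 with a difference of at most 0.33 in size on all arrays, and the cause was not tested. Signs turned with the brightest probe set (-0.051 for Ddit3, -0.016 for Atf6, 0.060 for Trib3, -0.27 for Herpud1, 0.012 for Pdia4, 0.11 for Sdf2l1 and 0.031 for Chac1), with the median of probe sets (0.072 for Hspa5, 0.0035 for Trib3, 0.064 for Pdia4, 0.016 for Sdf2l1 and -0.057 for Wfs1), with array weights (-0.0087 for Atf6, -0.11 for Herpud1, 0.032 for Dnajb9, -0.15 for Edem1, -0.060 for Asns and 0.0026 for Canx), with arrays centred on their median (0.0025 for Dnajb11) and without vector replicate 2 and Meg3 replicate 1 (-0.025 for Atf6, -0.11 for Herpud1, -0.14 for Edem1, -0.071 for Asns and 0.0023 for Canx). Over the fits without 1 array or without both apart arrays, the ranges that crossed 0 were Hsp90b1 -0.077 to 0.17, Atf6 -0.065 to 0.15, Trib3 -0.14 to 0.017, Herpud1 -0.15 to 0.14, Dnajb9 -0.23 to 0.14, Dnajb11 -0.100 to 0.046, Pdia3 -0.18 to 0.0083, Sdf2l1 -0.29 to 0.099, Edem1 -0.14 to 0.13, Chac1 -0.26 to 0.082, Asns -0.071 to 0.15, Calr -0.17 to 0.0017, Canx -0.14 to 0.074 and Wfs1 -0.20 to 0.34.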

Other observations

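Outside the set, the genes of the neighbouring lists at an unadjusted p under 0.05 (limma, all 6 arrays) are named here, so they were picked by their values. Some unnamed genes of the lists differed by as much with a wider spread, such as Tmx3 (-0.40, SE 0.27). Among other ER oxidoreductases, Prdx4, a peroxiredoxin of the ER that can also drive disulfide formation, differed by -0.49 (SE 0.15; limma adjusted p = 0.344), Txndc12 by -0.34 (SE 0.14) and Tmx1 by -0.39 (SE 0.15). In each of these 3 genes all Meg3 arrays lay below all vector arrays, where 6.39% of all genes were separated that way. None of the 3 was called with all 6 arrays. Among amino acid response genes, Ddit4, an inhibitor of mTORC1 signalling that also responds to hypoxia, read 7.56, 7.48 and 7.37 in vector replicates 1 to 3 and 6.75, 6.78 and 6.97 in Meg3 replicates 1 to 3 (difference -0.63, SE 0.12; limma adjusted p = 0.0823). The transporter genes Slc7a3 and Slc7a11 differed by -0.51 (SE 0.15) and -0.39 (SE 0.12), likewise without overlap and without a call on all 6 arrays. Derl3, an ER-associated degradation gene induced by the unfolded protein response, differed by 0.45 (SE 0.16; limma adjusted p = 0.538), at 6.82, 6.70 and 6.81 in vector replicates 1 to 3 and 6.89, 7.48 and 7.32 in Meg3 replicates 1 to 3. Without vector replicate 2 and Meg3 replicate 1, limma called 5 of these 7 genes, where it called 4.01% of all genes lower and 1.43% higher. The differences were -0.44 for Prdx4 (limma adjusted p = 0.0310), -0.48 for Txndc12 (adjusted p = 0.0268), -0.58 for Ddit4 (adjusted p = 0.0162), -0.71 for Slc7a3 (adjusted p = 0.00593) and 0.59 for Derl3 (adjusted p = 0.00941). Tmx1 and Slc7a11 were not called (limma adjusted p = 0.0879 and 0.101). The 7 genes were picked by their values and that fit shares its arrays with the fit on 6, so these calls are no independent support.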
